A study of Mus musculus with 56 samples.

Results

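The NR4A and EGR antigen-response factors are *Nr4a1*, *Nr4a2*, *Nr4a3*, *Egr1*, *Egr2* and *Egr3*, the 6 genes with these symbols among the 55359 genes of the RNA count table. They were taken by symbol, with no use of their values, and all 6 passed the filter on low counts that left 19657 genes to test. The NR4A proteins are orphan nuclear receptors and the EGR proteins are zinc finger factors. Both families are transcribed soon after a T cell receptor is engaged, *Nr4a1* and *Egr1* as early genes whose level follows signal strength. *Egr2* and *Egr3* are known for restraining T cell activation and for anergy, and the NR4A factors for T cell tolerance and exhaustion.

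RNA-Seq was performed on OVA:Kb-specific CD8 T cells, the T cells that recognise a transgenic fetal and graft antigen, from spleen and pooled lymph nodes of C57BL/6 females. Virgin mice were either untouched (Naive) or had rejected a 2W-OVA.BALB/c skin graft a month or more earlier (Sensitized), and mothers mated with 2W-OVA.BALB/c males were taken within days of delivery after no graft (N+P) or after such a graft (S+P). Post-partum cells were sorted by surface PD1 and CD73 into C1 or C4 (PD1-), C5 (PD1+CD73+) and C7 (PD1+CD73-), whereas no such gate is given for Naive and Sensitized cells. All mice were young adults when bought, and each library was made from 200 sorted cells. After technical libraries of a mouse and subset had been summed there were 30 samples, namely 3 of Naive, 3 each of N+P C1 and N+P C5, 4 of Sensitized, 6 of S+P C5, 6 of S+P C4 and 5 of S+P C7. Levels are given as CPM, the counts divided by the TMM-scaled library size. In sorted bulk samples, fewer cells that express a gene and less of its RNA per cell cannot be told apart.

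The 56 libraries held 6636532 to 32625243 counts. Of these, 1 library had identical counts under Naive replicate 1 and S+P C4 replicate 1 and was left out of both, and 1 nearly identical pair of S+P C7 libraries, which carry the names of mice 1 and 2, was counted once under replicate 1 (r = 0.999 over the genes of the table, which are no independent replicates, against at most 0.948 between libraries of 1 mouse and subset). Replicates 2 and 3 of S+P C4 and replicate 3 of S+P C7 had under 9000 detected genes, 7436 to 8002 of them, where the other 27 samples had at least 12383. The summed T cell markers ran from 3476 to 6668 CPM and *Cd8a* with *Cd8b1* from 1245 to 3901 CPM, and *Cd4* did not exceed 3.71 CPM. S+P C7 replicate 3 also held 8233 CPM of 5 B cell markers, 7538.5 CPM of 5 dendritic cell markers and 19860 CPM of 4 haemoglobin genes, where no other sample exceeded 1369, 38.3 and 419 CPM.

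Per kilobase of the canonical transcript, *Nr4a1* was the most abundant of the 6 transcripts, with a median of 34.2 CPM per kb over the 30 samples. *Egr1* followed with 8.61, and then came *Nr4a2* with 3.78, *Egr2* with 3.58 and *Nr4a3* with 1.83 CPM per kb. *Egr3* was the lowest with 0.209 CPM per kb. In S+P C5 *Nr4a2* also lay above *Egr1*, which was at 10.6 ± 4.34 CPM per kb (SD, n = 6), within the spread. The neighbours *Nr4a2* and *Egr2* changed places between groups: the mean per-length level of *Nr4a2* was 20.4 ± 15.8 (SD, n = 6) in S+P C5 against 9.24 ± 7.42 for *Egr2*, while in N+P C5 it was 6.25 ± 2.38 (SD, n = 3) against 7.13 ± 4.26, differences within the spread.

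A gene was called where it changed by more than 0.9 on the log2 scale with an adjusted p below 0.1. No member was called in any of 12 contrasts between the groups (edgeR quasi-likelihood test, Benjamini-Hochberg over all genes tested). The share of all genes that passed was 0.153% for Sensitized against Naive, 0.0407% for N+P C5 against Naive, 0% for N+P C1 against Naive and 0.00509% for N+P C5 against N+P C1. It was 0.0712% for S+P C5, 0.0305% for S+P C7 and 0.00509% for S+P C4, each against Sensitized. Between S+P subsets it was 0.0305% for C5 against C4, 0.00509% for C7 against C4 and 0% for C7 against C5. It was 0% for S+P C5 against N+P C5 and 0.0254% for the difference between the C5 effects in sensitized and naive mothers. In this edgeR fit of all 7 groups 0 of the 72 member contrasts reached an unadjusted p under 0.05, as did 3.23% to 15.9% of all genes per contrast. DESeq2, which called 606 to 1102 genes per contrast, passed 0 members, with an unadjusted p under 0.05 in 3 of 72. The 95% intervals were wide, and that of *Egr1* reached a log2 fold change of at least 1.20 in every contrast, so a 2-fold rise lay within each of its intervals.

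**Figure D1:**
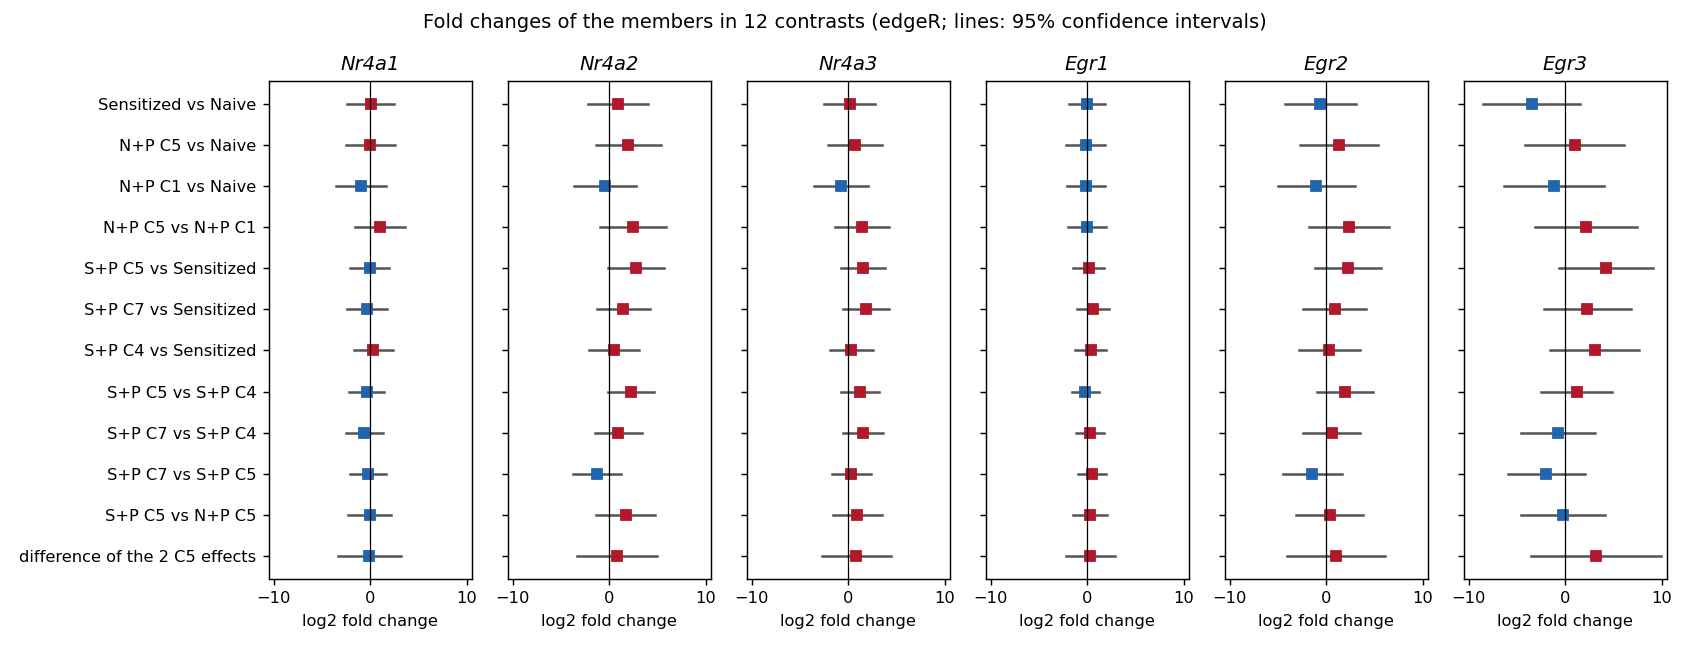
Log2 fold change of each member (x axis) in the 12 contrasts (rows), with red squares for values above 0, blue squares for values below 0 and lines for the 95% confidence intervals of the edgeR fit. Every interval includes 0, *Egr1* stays between -0.21 and 0.61, and *Nr4a2* reaches 2.77 in S+P C5 against Sensitized.

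*Nr4a2*, an orphan receptor also called Nurr1, was higher in C5 than in the PD1- subset of the same mother throughout. Naive samples had 0.329, 9.15 and 13.4 CPM, and N+P C1 samples 8.19, 5.05 and 3.45 CPM. N+P C5 samples had 41.4, 29.0 and 18.8 CPM. All 3 N+P C5 samples were thus above every Naive and every N+P C1 sample, with a log2 fold change of 1.97 (SE 1.65) against Naive and 2.42 (SE 1.68) against N+P C1, both with an adjusted p of 1 (edgeR). The summed level of 13 heat shock genes was 2965 to 4764 CPM in N+P C5, below the 5287 to 11953 CPM of every Naive sample, and its part in the N+P C5 against Naive values was not tested. Of all genes tested, 7.4% lay above every Naive sample and 5.48% above every N+P C1 sample in this way. Sensitized samples had 17.2, 9.60, 29.7 and 0.545 CPM. S+P C5 ran from 12.3 to 221 CPM with a median of 102, S+P C4 from 0 to 54.5 CPM with a median of 7.51, and S+P C7 samples had 4.11, 20.7, 70.4, 77.5 and 23.0 CPM. S+P C5 overlapped the other groups, with 4 of its 6 samples above every other sample of the series. Its log2 fold change was 2.77 (SE 1.41, 95% interval -0.11 to 5.65) against Sensitized, with an unadjusted p of 0.0586 and an adjusted p of 0.417 (edgeR). The summed level of 3 natural killer cell markers, of which *Ncr1* was at 0 in every S+P C5 sample, was 75.9 to 341 CPM in S+P C5 and 377 to 606 CPM in Sensitized, without overlap, and their part in this value was not tested.

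The gene lies on chromosome 2 at 56996842 to 57014331 (GRCm39, minus strand) and no other annotated gene overlaps it. *Egr2* lies on chromosome 10 at 67371305 to 67378018 (plus strand) and overlaps the antisense long noncoding gene *Gm66196*. *Nr4a1* lies on chromosome 15 at 101151980 to 101172681 (plus strand) and overlaps *Gm63180*, *Gm56721* and *Gm63176*, and *Nr4a3* on chromosome 4 at 48045153 to 48086447 (plus strand) overlaps *Gm68858*. *Egr3*, on chromosome 14 at 70314350 to 70320063 (plus strand), and *Egr1* overlap no other gene. Since the strand setting of the counting is not given in the sources used here, reads of overlapping genes cannot be told apart.

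Promoter windows of 300 bases (250 before to 50 after the start site, RefSeq, GRCm38.p6) were searched for 4 members. These were *Nr4a1*, *Nr4a2*, *Nr4a3* and *Egr2*, and no window of *Egr1* or *Egr3* was searched. They are shown for *Nr4a2* and *Egr2*, which were higher in C5 in every mother, and for *Nr4a1*, which was not. Capitals mark the core of the cAMP response element (TGACG, or CGTCA on the other strand), to which CREB factors bind, and the CArG box, to which serum response factor binds.
Nr4a2 chr2:57123954-57124253 minus strand: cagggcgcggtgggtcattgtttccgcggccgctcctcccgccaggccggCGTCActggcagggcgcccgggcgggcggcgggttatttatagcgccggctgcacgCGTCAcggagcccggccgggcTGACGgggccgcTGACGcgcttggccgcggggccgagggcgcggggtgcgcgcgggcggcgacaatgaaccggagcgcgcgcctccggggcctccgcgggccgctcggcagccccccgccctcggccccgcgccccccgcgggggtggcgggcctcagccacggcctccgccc
Egr2 chr10:67537619-67537918 plus strand: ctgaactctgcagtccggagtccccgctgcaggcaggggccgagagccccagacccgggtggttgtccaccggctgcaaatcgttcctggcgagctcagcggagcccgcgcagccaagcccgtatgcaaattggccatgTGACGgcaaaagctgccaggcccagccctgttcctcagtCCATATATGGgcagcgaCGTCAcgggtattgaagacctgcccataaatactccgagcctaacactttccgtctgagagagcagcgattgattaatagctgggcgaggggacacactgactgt
Nr4a1 chr15:101266596-101266895 plus strand: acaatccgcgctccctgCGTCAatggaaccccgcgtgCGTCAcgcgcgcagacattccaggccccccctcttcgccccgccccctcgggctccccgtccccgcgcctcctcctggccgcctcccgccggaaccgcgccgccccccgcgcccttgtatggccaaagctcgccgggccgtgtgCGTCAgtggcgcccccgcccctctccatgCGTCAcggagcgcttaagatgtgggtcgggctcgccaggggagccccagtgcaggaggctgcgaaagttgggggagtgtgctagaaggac
The *Nr4a2* and *Nr4a1* windows each held 4 CRE cores on either strand, as did that of *Nr4a3*. The *Egr2* window held 2, with a CArG box between them. Among all 32851 windows of the same length, 20.8% held at least 1 CRE core, 1.03% held 3 or more and 1.63% held a CArG box. *Egr2* has 5 windows for 5 start sites, and the one shown overlaps 2 others with the same matches, while of the remaining windows 1 held a CArG box alone and 1 held neither. The EGR site GCGNGGGCG, searched on both strands, was found once each in the *Nr4a2* and *Nr4a1* windows and in 5.55% of all windows. The NR4A monomer site AAAGGTCA was in none of the windows of these 4 members and in 1.51% of all windows. These matches describe letters only.

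*Egr2*, which with *Egr3* is known as a negative regulator of T cell activation, followed the same order in the N+P mothers. Naive samples had 12.1, 0.331 and 13.1 CPM, N+P C1 samples 4.34, 8.33 and 0 CPM, and N+P C5 samples 13.1, 35.8 and 14.7 CPM. N+P C5 lay above N+P C1 without overlap and above Naive only by the difference between 13.14 and 13.07 CPM. Such a lack of overlap was seen in 5.48% and 7.4% of all genes tested. Sensitized samples had 9.52, 9.80, 0.0910 and 2.88 CPM. S+P C5 ran from 4.80 to 61.9 CPM with a median of 20.2, S+P C4 from 0 to 21.3 CPM with a median of 2.08, and S+P C7 samples had 15.7, 0, 16.6, 17.0 and 1.37 CPM. Group against group the log2 fold change was 2.33 (SE 2.03) for N+P C5 against N+P C1 and 1.99 (SE 1.42) for S+P C5 against S+P C4, with adjusted p of 1 and 0.663 (edgeR).

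Subsets of 1 mother carry the same mouse name in the deposited columns, so C5 was also compared with the PD1- subset (C1 or C4) of the same mother. *Nr4a2*, *Egr2* and *Egr3* were each higher in C5 in 9 of 9 mothers, 3 of 3 N+P and 6 of 6 S+P, as were 1.41% of all genes tested. For *Egr3* the difference was 31 against 30 counts in N+P mother 3 and 2 against 0 counts, under the floor of 3, in S+P mother 3. *Nr4a3* was higher in 7 of 9, *Nr4a1* in 6 of 9 and *Egr1* in 4 of 9. For *Nr4a2* the PD1- and C5 values were 8.19 and 41.4, 5.05 and 29.0, and 3.45 and 18.8 CPM in the N+P mothers. In the S+P mothers they were 0 and 25.2, 13.1 and 122, 0 and 221, 54.5 and 93.1, 52.6 and 111, and 1.90 and 12.3 CPM. For *Egr2* they were 4.34 and 13.1, 8.33 and 35.8, and 0 and 14.7 CPM in N+P mothers, and 1.81 and 11.5, 0 and 22.2, 0 and 4.80, 21.3 and 46.3, 16.03 and 61.9, and 2.34 and 18.1 CPM in S+P mothers. The difference thus ran the same way in every mother for *Nr4a2* and *Egr2*, and the C4 level was 0 in S+P mothers 1 and 3 for *Nr4a2* and in S+P mothers 2 and 3 for *Egr2*. The summed level of *Foxp3* and *Ikzf2*, which mark regulatory T cells, also moved with the gate. It was 37.0 to 81.3 CPM in N+P C5 against 5.36 to 16.4 in N+P C1 and 6.05 to 18.4 in Naive. In S+P C5 it was 17.3 to 121 CPM against 0 to 32.8 in S+P C4 and 3.25 to 17.8 in Sensitized, and in S+P C7 0 to 55.3 CPM. *Foxp3* was at 0 in every Naive, Sensitized and S+P C4 sample. The cells had been enriched for T cells and sorted with OVA:Kb tetramers, and *Cd4* was at 0 in every N+P C5 and S+P C5 sample. Which cells held these transcripts, and their part in the members' values, was not tested.

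On the log2(CPM + 1) scale, C5 was above the PD1- subset by 2.92 ± 2.15 for *Nr4a2*, 2.45 ± 1.13 for *Egr2* and 0.96 ± 0.73 for *Egr3* (mean ± SD, n = 9 mothers). An exact two-sided sign-flip permutation test over the 9 mothers gave p = 0.00391 for *Nr4a2* and for *Egr2*, the smallest value that 9 mothers allow, and 0.235 after Benjamini-Hochberg adjustment over all 19657 genes. The test takes the 9 mothers as separate and independent mice, which rests on their names alone. Its p is not given for *Egr3*, since 2 of the 9 differences of that gene were within counting error. For *Nr4a3* the difference was 1.41 ± 2.08 and the exact p was 0.0352, or 0.447 after the same adjustment. For *Nr4a1* it was 1.02 ± 1.74 with an exact p of 0.121 (n = 9). *Egr1* differed by 0.22 ± 1.39 with an exact p of 0.75 (n = 9). An edgeR fit with the mothers as blocks gave log2 fold changes of 3.07 (SE 1.18) for *Nr4a2*, 3.52 (SE 1.32) for *Egr2* and 2.41 (SE 1.05) for *Egr3*, with unadjusted p of 0.0231, 0.0204 and 0.0407. Their adjusted p were 0.692, 0.668 and 0.774, so none passed, where 0.148% of genes did. This comparison was chosen after the members' values had been seen. Without the 2 mothers whose S+P C4 sample had under 9000 detected genes, *Nr4a2*, *Egr2* and *Egr3* were higher in 7 of 7, and *Nr4a1* in 4 of 7. *Nr4a3* was then higher in 5 of 7, with p = 0.141 in the exact sign-flip test.

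The comparison was also made library by library. Every C5 library lay above every PD1- library of the same mother in 9 of 9 mothers for *Egr2*, over 16 C5 and 15 PD1- libraries, as for 0.32% of all genes. S+P mothers 2 and 3 had only 1 C5 and 1 C4 library each. For them and for every member, this count rests on the same libraries as the summed comparison and is no separate check. The library left out of S+P C4 replicate 1, whose counts equal those of a Naive library, had 190 counts of *Egr2* (10.6 CPM), above the 89 counts (2.73 CPM) of a C5 library of that mother, so kept under its S+P C4 name it would end the separation there. Its 21 counts of *Nr4a2* (1.17 CPM) lay below both C5 libraries. The separation held for *Nr4a2* in 8 of 9 mothers. The exception was S+P mother 6, whose C5 libraries had 558 and 20 counts of *Nr4a2* and whose C4 libraries had 77 and 9. It held for *Nr4a1*, *Nr4a3* and *Egr3* in 4 of 9 each and for *Egr1* in 2 of 9.

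**Figure D2:**
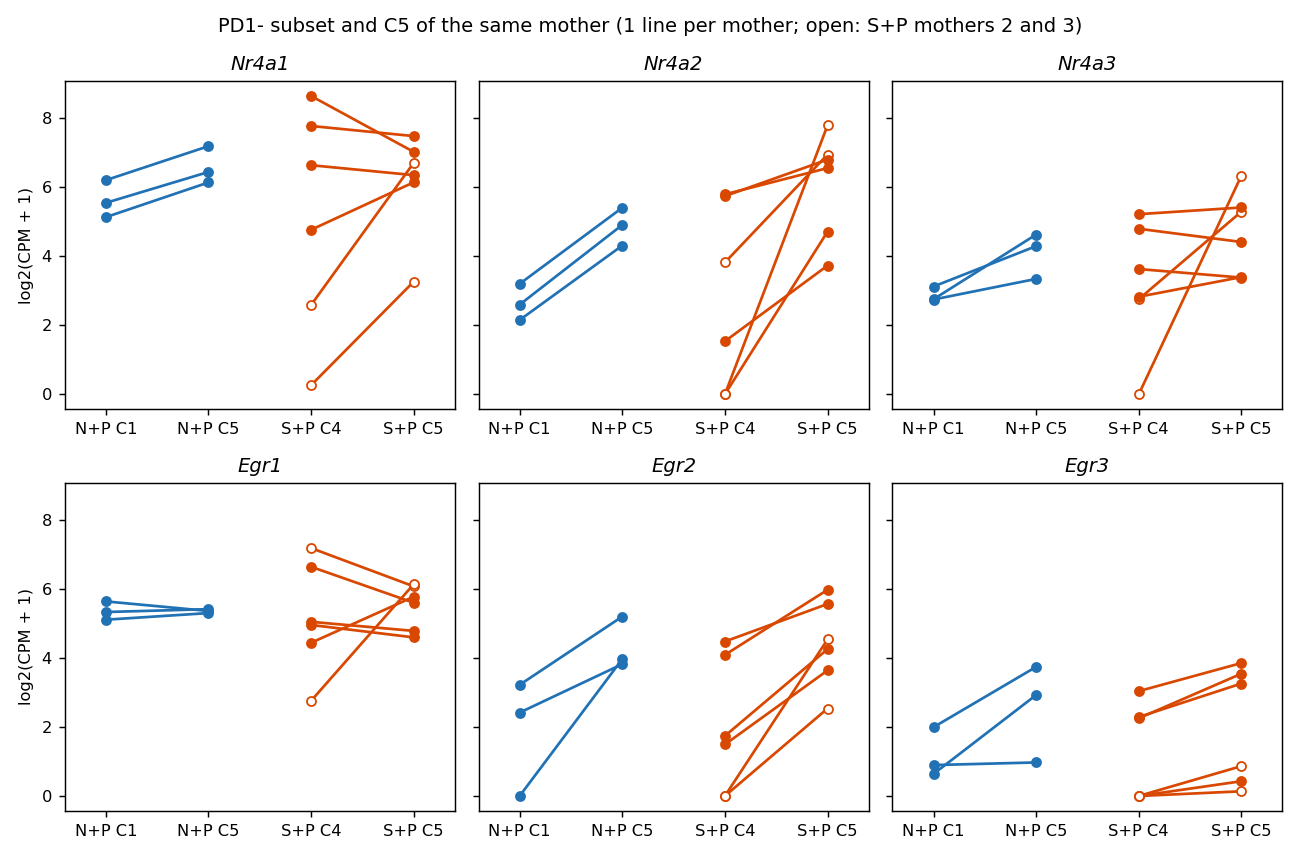
Level of each member on the log2(CPM + 1) scale (y axis) in N+P C1, N+P C5, S+P C4 and S+P C5 (x axis), with 1 line per mother, blue for 3 N+P and orange for 6 S+P mothers, and open points for the 2 S+P mothers whose C4 sample had under 9000 detected genes. All 9 lines rise for *Nr4a2* and *Egr2*, the *Egr3* lines of N+P mother 3 and S+P mother 3 are nearly flat, and only 4 of 9 rise for *Egr1*.

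Between the PD1+ subsets of 5 S+P mothers, *Nr4a2* was lower in C7 than in C5 in 4 and higher in C7 than in C4 in 5 of 5, as 2.5% of all genes were. In mothers 1, 3, 4, 5 and 6 the C7 values were 4.11, 20.7, 70.4, 77.5 and 23.0 CPM beside 25.2, 221, 93.1, 111 and 12.3 CPM in C5. The nearly identical pair, with 101 and 91 *Nr4a2* counts (5.19 and 3.80 CPM), was taken as mother 1, whose other C7 library had 81 counts (3.28 CPM). If it is of mother 2, it lies below the C4 library of that mother at 9.99 CPM. The log2 fold change of C7 against C5 was -1.32 (SE 1.21, adjusted p of 1, edgeR). *Egr2* was lower in C7 than in C5 in 4 of 5 mothers but above C4 in only 2 of 5, where mother 3, with its S+P C7 sample of under 9000 detected genes, had 0 CPM in C4 and C7.

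*Nr4a1*, the receptor also called Nur77 whose reporter is used to read antigen receptor signals, was higher in C5 than in the PD1- subset in 3 of 3 N+P and in 3 of 6 S+P mothers. Naive samples had 118, 93.4 and 88.4 CPM, N+P C1 samples 72.8, 45.8 and 34.1 CPM, and N+P C5 samples 145, 86.0 and 69.5 CPM. All N+P C1 samples were below all Naive samples (log2 fold change -0.97, SE 1.27, adjusted p of 1, edgeR), as were 3.08% of all genes. In the N+P mothers C5 was 1.99, 1.88 and 2.04 times C1, with a log2 fold change of 0.98 (SE 0.20) and an adjusted p of 0.255 in an edgeR fit with the mothers as blocks. Sensitized samples had 206, 73.4, 118 and 7.50 CPM, and S+P C4 ran from 0.199 to 399.7 with a median of 62.5 CPM, S+P C5 from 8.61 to 178 with a median of 92.0 CPM and S+P C7 from 8.34 to 174 with a median of 91.8 CPM. The sensitized groups overlapped fully, and the highest and the lowest sample of the series were both S+P C4.

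*Nr4a3*, known as Nor1, had 8.85 to 13.3 CPM in Naive, 5.71 to 7.71 in N+P C1 and 9.16 to 23.8 in N+P C5. The N+P C1 samples lay below both other groups without overlap, by a log2 fold change of -0.72 (SE 1.37) against Naive, and N+P C5 was higher by 1.43 (SE 1.39) than N+P C1, both with an adjusted p of 1 (edgeR). Such a lack of overlap was seen in 3.08% of all genes tested for N+P C1 below Naive and in 5.48% for N+P C5 above N+P C1. S+P C5 ran from 9.43 to 79.8 CPM with a median of 29.3 and Sensitized from 5.43 to 17.2 CPM with a median of 11.7. S+P C7 had 6.24, 164, 13.05, 20.5 and 2.49 CPM, and its highest value came from replicate 3, the sample with B cell, dendritic cell and haemoglobin transcripts. The part of those cells in this value was not tested.

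*Egr1*, an early gene of many growth and antigen receptor signals, had 60.0, 44.2 and 31.1 CPM in Naive, 48.9, 33.5 and 39.3 in N+P C1 and 40.1, 38.4 and 41.7 in N+P C5. The SD over N+P C5 was 1.61 CPM around a mean of 40.1 (n = 3). This holds for the summed samples only. Their technical libraries had 62.4 and 22.8, 18.1 and 67.0, and 38.2 and 67.5 CPM (without TMM scaling). Sensitized samples had 114, 15.1, 34.4 and 11.4 CPM, and S+P C5 ran from 23.2 to 69.3 with a median of 50.7 CPM. The values of 145 CPM in S+P C4 replicate 2 and 218 CPM in S+P C7 replicate 3, the highest of the series, were both from samples with under 9000 detected genes. Its log2 fold change stayed between -0.21 and 0.61 over the 12 contrasts with standard errors of 0.69 to 1.25.

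*Egr3* was close to the floor. It had over 3 counts in 20 of 30 samples, and 3 of 4 Sensitized and 3 of 6 S+P C4 samples had 0 counts. Naive samples had 4.45, 0.0331 and 5.48 CPM, N+P C1 samples 2.98, 0.557 and 0.861, and N+P C5 samples 12.4, 6.605 and 0.962 CPM. S+P C5 fell into 3 samples below 1 CPM and 3 between 8.58 and 13.5 CPM, and the latter were the S+P mothers 4, 5 and 6, whose C4 samples had 3.77, 7.22 and 3.89 CPM. S+P C5 was higher than Sensitized by 4.24 (SE 2.40, 95% interval -0.66 to 9.14, adjusted p = 0.517, edgeR), a fitted value against a group with 39 counts in 1 of 4 samples and 0 in the others. Without that sample, Sensitized replicate 3, the fitted value was 10.55 (SE 3.43, adjusted p = 0.319, edgeR), which against a group all at 0 is no bound. In S+P mothers 1, 2 and 3 the difference rested on 16, 18 and 2 counts against 0. *Egr4*, the remaining EGR gene, had 7 counts in S+P C5 replicate 5, 3 counts in S+P C7 replicate 4 and 0 counts in the other 28 samples.

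**Figure D3:**
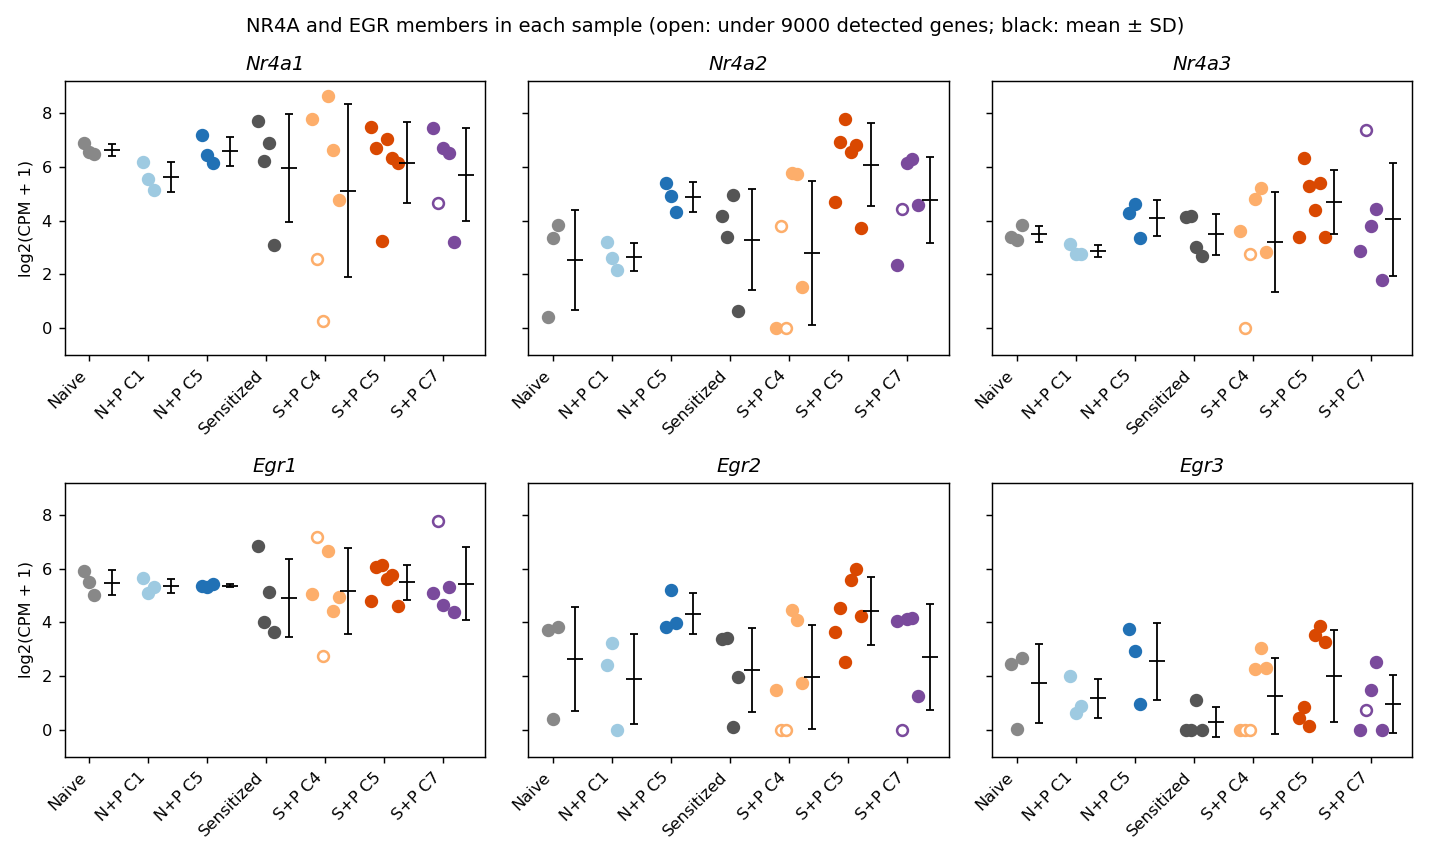
Level of each member on the log2(CPM + 1) scale (y axis) in each sample of the 7 groups (x axis), with open points for the 3 samples with under 9000 detected genes and black bars for the mean ± SD of a group on this scale. The N+P C5 points of *Nr4a2* sit above all Naive and N+P C1 points, the *Egr1* groups overlap, and *Egr3* is at 0 in 3 of 4 Sensitized samples.

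How far the 200-cell libraries of 1 mouse differed sets the precision of these values. Over 23 pairs of libraries the median difference on the log2(CPM + 1) scale was 0.74 for *Nr4a1*, 0.83 for *Nr4a2*, 0.93 for *Nr4a3*, 1.03 for *Egr1*, 1.04 for *Egr2* and 0.76 for *Egr3*. The SD between mice of a group was taken over the means of their pairs, so it still holds a part of the technical spread. The technical SD is that of a single library, which is larger than the technical part of a pair mean. It cannot be set against the SD of the pair means like for like. The technical SD was 0.71 for *Nr4a1* and 0.98 for *Nr4a2*, under the SD of the pair means of 1.44 and 1.64. For *Egr1* the technical SD of a single library was 1.04 beside 0.85 for the pair means, and for *Nr4a3* it was 1.27 beside 1.08. *Egr2* differed by over 4-fold in 7 of 23 pairs, such as 530 and 0 counts in Sensitized replicate 1. Over 53 libraries, *Egr1* had over 3 counts in 53, *Nr4a1* in 52, *Nr4a2* and *Nr4a3* in 50 each, *Egr2* in 42 and *Egr3* in 31. A count of 0 in 1 such library therefore does not show that the mouse's cells lacked the transcript.

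**Figure D4:**
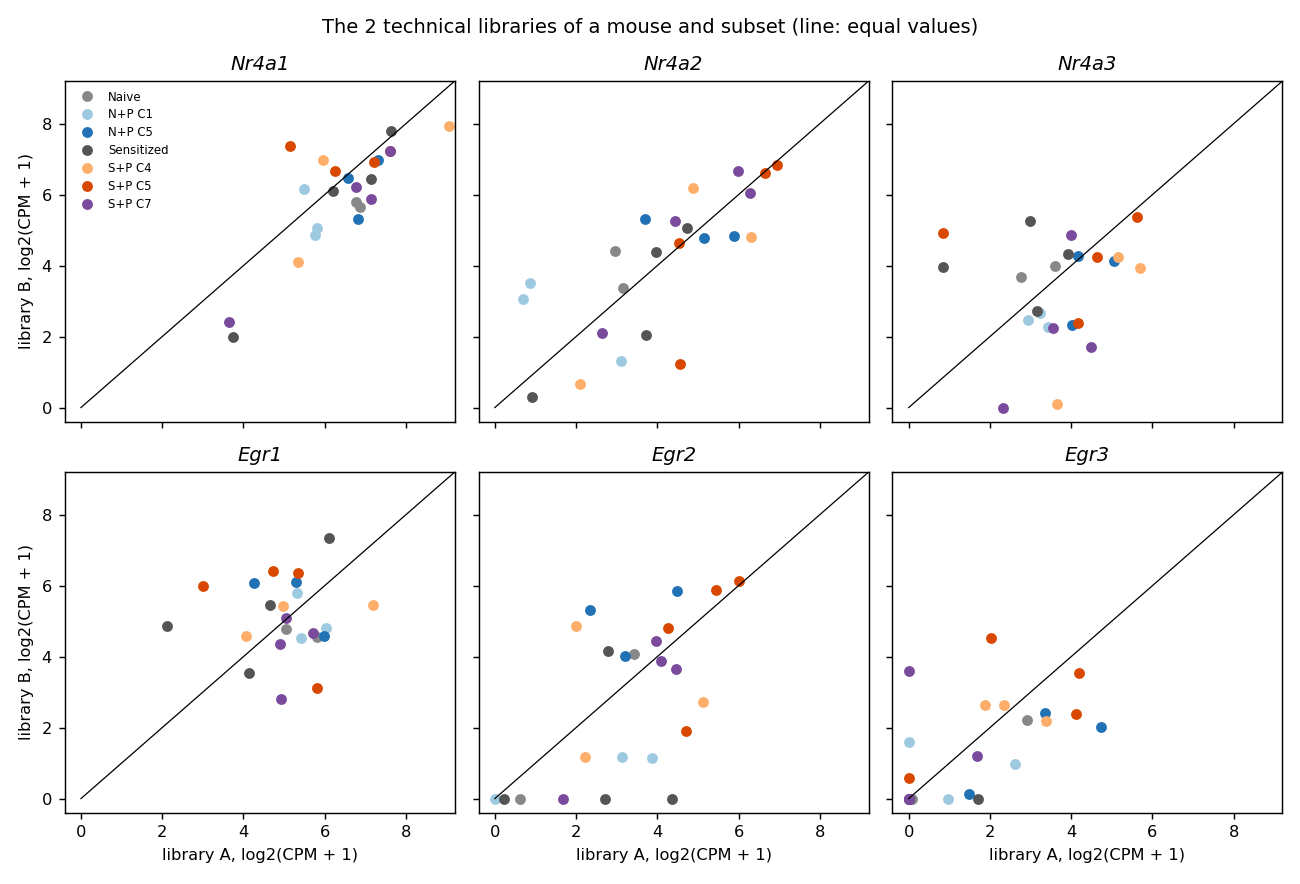
Level of each member in technical library A (x axis) and library B (y axis) of the same mouse and subset, both on the log2(CPM + 1) scale, with 1 point per pair coloured by group and a line for equal values. *Nr4a1* lies nearest to the line, and *Egr2* and *Egr3* have pairs with a value in 1 library and 0 in the other.

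The members did not vary as 1 set across the samples. Over all 30 samples, which share subset and depth differences, Spearman's rho of the log2 levels was 0.69 between *Nr4a2* and *Nr4a3*, 0.63 between *Egr2* and *Egr3*, 0.60 between *Nr4a3* and *Egr2* and 0.58 between *Nr4a2* and *Egr2*. It was 0.06 between *Egr1* and *Egr2* and 0.24 between *Nr4a1* and *Nr4a2*. Pearson's r for the same pairs was 0.52, 0.62, 0.42, 0.49, 0.01 and 0.28. Among 8245 genes with a mean of at least 10 CPM, the most like *Nr4a2* were *Xcl1*, a chemokine of activated CD8 T cells (rho 0.81), *Casp4*, an inflammatory caspase (0.79), and *Cxcl10*, an interferon-induced chemokine (0.77). For *Egr2* they were *Pdcd1lg2*, which encodes the PD1 ligand PD-L2 (0.79), *Irf4*, a factor induced by antigen receptor signals (0.78), and *Cacna1d*, a calcium channel subunit (0.75). For *Nr4a1* they were *Snrpb*, *Dusp5* and *Gm26532* (0.82, 0.79 and 0.79), for *Nr4a3* *Pdcd5*, *A430093F15Rik* and *St13* (0.77, 0.70 and 0.65), for *Egr1* *Mpc2*, *Wdr36* and *Sms* (0.74, 0.68 and 0.67) and for *Egr3* *Pank2*, *Auh* and *Tnfsf8* (0.71, 0.68 and 0.67). Without the 3 samples of under 9000 detected genes *Xcl1* stayed first for *Nr4a2* (rho 0.84) and *Pdcd1lg2* and *Irf4* first and second for *Egr2* (0.72 and 0.71). *Casp4* and *Cxcl10* then ranked 5 and 4 for *Nr4a2* and *Cacna1d* 5 for *Egr2*. The 3 genes named for *Nr4a1* ranked 9, 14 and 18, those for *Nr4a3* 2, 22.5 and 77, those for *Egr1* 4, 3 and 10, and those for *Egr3* 4, 5 and 9.

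The partners and regulators of the 2 families did not pass either. Of 14 such genes 12 were tested, with 0 past the thresholds in 12 contrasts. *Nab2*, a corepressor that binds EGR proteins, had a log2 fold change of 2.47 (SE 1.22, adjusted p = 0.390, edgeR) in S+P C5 against Sensitized. Of 29 other early response genes 28 were tested, with 0 past the thresholds and medians between -0.56 and 0.28. *Irf4* was at 4.05 (SE 1.54) and the antiproliferative gene *Btg2* at -1.34 (SE 0.36) in S+P C5 against Sensitized, both with an adjusted p of 0.277 (edgeR). *Atf3* had 0 counts in all 6 S+P C5 samples, but it was also at 0 in N+P C1 and at a mean of 0.0137 CPM in Naive. Its Sensitized mean was 3.48 CPM, with 13.7 CPM in the highest sample. The summed level of these 29 genes was 1937 to 7425 CPM in S+P C5, 2537 to 10679 in Sensitized, 4073 to 9137 in N+P C5 and 6302 to 8219 in Naive, groups that overlap. Of 13 heat shock genes, a list taken for stress during cell isolation, 12 were tested and 0 passed. Their sum was 2437 to 5487 CPM in S+P C5 and 3594 to 4902 CPM in S+P C4. The highest of them in Naive were *Hspa8*, *Hsp90ab1* and *Hsp90aa1*, with means of 3189, 2169 and 990 CPM. *Hspa1a* had means of only 0.0412 CPM in Naive and 0.805 CPM in N+P C5. The sum thus mainly follows the high genes, and whether it measures isolation stress was not tested. In N+P C5 against Naive 2 of the 12 had an unadjusted p under 0.05 (edgeR).

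Among 20 genes linked to EGR or NR4A factors in tolerant or exhausted T cells, *Tox*, an HMG box factor of exhausted T cells, was the only one to pass in the edgeR fit. It rose by 3.18 (SE 0.53, adjusted p = 0.0118, edgeR) in S+P C5 and by 3.02 (SE 0.53, adjusted p = 0.0190) in S+P C7, both against Sensitized. Sensitized samples had 37.3 to 52.0 CPM of *Tox* and S+P C5 samples 252 to 525.5 CPM, with no overlap. The list's median log2 fold change was 4.09 in N+P C5 against Naive, 3.23 in S+P C5 against Sensitized and 1.64 in S+P C5 against S+P C4, beside 0, -0.01 and 0.11 over all genes. In these contrasts 11, 13 and 8 of the 20 had an unadjusted p under 0.05 (edgeR), beside 5.33%, 13% and 13.3% of all genes. *Nrgn*, *Sema7a* and *Ccl1* were at 0 in every Naive and Sensitized sample. *Rnf128*, *Spry1*, *Havcr2*, *Tox2*, *Nrp1*, *Spry2* and *Lag3* had Naive means of 0.0137 to 0.997 CPM. The list's medians against Naive and Sensitized thus rest partly on values fitted against levels at or near 0. *Nrp1*, the receptor neuropilin 1, was at 169.5 to 374 CPM in N+P C5 and at most 1.69 CPM in Naive (adjusted p = 0.140, edgeR). *Lag3*, an inhibitory receptor, was at 217 to 311 CPM in N+P C5 and at most 1.49 CPM in Naive (adjusted p = 0.273). *Xcl1* was at 138 to 783 CPM in S+P C5 and 31.9 to 37.4 CPM in Sensitized (adjusted p = 0.277). The list is not independent of these samples, because the study names several of its genes and because *Pdcd1* encodes the PD1 on which the subsets were sorted. The members' own medians in the same contrasts were 0.85, 1.91 and 1.20, with 0 of 6 under an unadjusted p of 0.05.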

How the data were processed

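Adapters were removed by the authors with cutadapt 3.4 and read pairs mapped to GRCm39 with STAR 2.6.1b (versions from the submitters' processing notes). Multi-mapping reads were dropped, and featureCounts 2.0.1 gave the deposited raw counts of 55359 genes in 56 libraries. The annotation release and strand setting are not given in the sources used here. No molecular identifiers were used, and the floor of 3 counts therefore covers counting error alone.

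Technical libraries were summed per mouse and subset. All 7 groups were fitted with edgeR 4.0.16 in R 4.3.3 (robust quasi-likelihood test, TMM scaling, filterByExpr at 10 counts), as the unit requires, and DESeq2 1.42.0, the study's tool, was an alternative. The fit was run on simulated counts of Sensitized and S+P C5 with known changes. That simulation gave all genes the same spread and changed only genes with many counts. It therefore does not show what the fit would detect in genes as low or as variable as some members. Gene places came from GENCODE M39 and promoters from RefSeq (GRCm38.p6). Plots were made with matplotlib 3.10.9.

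The members and gene lists were chosen with earlier results of these data known. All members were named, as were list genes past the thresholds or with 1 of the 3 smallest unadjusted p of their list (some of these are printed) and the 3 genes most like each member. *Egr4* was named after its values were seen.

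Replicate numbers were taken to pair the subsets of a mother because the column names give each mouse 1 name. Deviations from the group mean correlated by 0.07 to 0.19 on average for same-numbered samples and by -0.04 to -0.02 for other numbers. Deviations cancel within a group, so these averages are not independent of each other. A sample was most like its own number in 3 of 3 pairs for N+P C1 with C5 and 4 of 6 for S+P C4 with C5. It was so in 3 of 5 for S+P C4 with C7 and 5 of 5 for S+P C5 with C7.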

Additional observations from a re-analysis of the deposited data

Results flagged for a closer look

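Within groups of 4 to 10 samples, 24 combinations of a member and a group were searched for a sample far from the others, and 3 were found, where chance gives about 1 in 20. *Nr4a3* was at 164 CPM in S+P C7 replicate 3, against at most 20.5 CPM in the other S+P C7 samples. *Egr1* was at 218 CPM in the same sample, against at most 38.97 CPM in the others. This sample has 7879 detected genes and holds B cell, dendritic cell and haemoglobin transcripts, whose part in these values was not tested. *Egr3* was at 1.18 CPM in Sensitized replicate 3, against 0 in the other 3 samples, so that its gap equals the whole range by construction and the rate of 1 in 20 does not apply to it.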

How the results depend on the processing

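No member passed the thresholds in any contrast under DESeq2, RLE scaling, no filter, a fit of only the groups compared, all libraries kept under their labels, removal of the 3 samples with under 9000 detected genes, or removal of each sample in turn. Each of the 189 recomputed counts was 0, the block fits below included. The 208 recomputed fold changes cover selected members and contrasts, mostly larger changes, and they kept their direction and stayed on the same side of the thresholds. Some fold changes outside this selection reversed in the block fits below. *Nr4a1* in S+P C5 against S+P C4 went from -0.39 (SE 0.89) to 0.67 (SE 1.03). *Nr4a3* in S+P C7 against S+P C5 went from 0.32 (SE 1.01) to -0.55 (SE 1.54). Over all genes DESeq2 called 606 to 1102 per contrast, where edgeR called 0 to 30 with all 7 groups. A fit of only the groups compared called 51 genes for N+P C5 against N+P C1, with the block 29, against 1. It called 98 for Sensitized against Naive, 57 for N+P C5 against Naive, 142 for S+P C5 against Sensitized and 30 for the difference of the C5 effects, against 30, 8, 14 and 5. *Nr4a2* in S+P C5 against Sensitized ranged from 2.35 to 3.43, with a lowest adjusted p of 0.247. *Egr3* there ranged from 3.78 to 10.55, and in S+P C5 against S+P C4 *Nr4a2* ranged from 1.82 to 3.75 and *Egr2* from 1.38 to 4.10. The cause of these shifts was not tested.

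With the replicate number as a block the count was also 0 for N+P C5 against N+P C1 and for the 3 contrasts between S+P subsets. The blocked log2 fold change of *Nr4a2* was 2.44 (SE 0.47, adjusted p = 0.216, edgeR) for N+P C5 against N+P C1 and 3.75 (SE 1.59, adjusted p = 0.805) for S+P C5 against S+P C4. With each of the 9 mothers left out in turn, the blocked C5 effect ranged from 2.59 to 3.42 for *Nr4a2*, 2.96 to 4.00 for *Egr2* and 2.01 to 2.74 for *Egr3*, and without the 2 mothers with a sample of under 9000 detected genes it was 2.46, 2.53 and 1.86. These 9-mother fits were added after the data had been seen.

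In 6 of 23 technical pairs for *Egr3* and 4 for *Egr2*, 1 library was at or under 3 counts and the other above. The cause was not tested. With 3 to 6 samples a group, the standard errors ran from 0.69 to 3.30 on the log2 scale.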
